A study of Mus musculus with 18 samples.

Results

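Liver RNA levels of 36 genes of glucose, glycogen and insulin handling were compared between mice fed ethanol (EtOH) and pair-fed mice, with and without a knockout of *Apoe*. The genes were taken by name and not by a threshold on measured values, but were chosen with earlier results of these data known. Their shares of calls beside those of all genes are therefore descriptions only. Of the 36 names, 35 were found among the 15052 genes of the table. The remaining name, *G6pc*, is listed as *G6pc1* under the same identifier (ENSMUSG00000078650), and it is described beside the 35 genes and not counted with them.

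The livers came from 18 mice in 4 groups, with 4 pair-fed and 5 EtOH-fed wild-type (WT) mice, and 5 pair-fed and 4 EtOH-fed *Apoe* knockout (KO) mice. All were 10–12 weeks old and had 5 days of acclimation to a liquid diet. The EtOH-fed mice then drank a diet with 5% ethanol for 10 days and received 5 g/kg ethanol by gavage on day 11, whereas the pair-fed mice drank an isocaloric control diet and received 9 g/kg dextrin maltose. Livers were taken 9 h after the gavage, so that every value reflects both the long diet and the recent binge. EtOH-fed and pair-fed mice differed in ethanol, in what replaced the calories of ethanol in the control diet, and in the dextrin maltose of the gavage. These cannot be told apart here. Where ethanol is said to raise or lower a gene, the difference between EtOH-fed and pair-fed mice is meant. The WT mice were C57BL/6J, and the knockout is germline, so that it concerns every cell type and not the liver alone.

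A hepatocyte takes up glucose through the transporter GLUT2 and traps it by phosphorylation. The sugar phosphate is then stored as glycogen, broken down through glycolysis or set free again, and in fasting the liver makes glucose from lactate, glycerol and amino acids by gluconeogenesis. Insulin acts through its receptor and the IRS adaptor proteins, switches off the transcription factor FOXO1 and favours storage over release. Ethanol oxidation fills the cytosol with NADH, which is carried into mitochondria by the malate-aspartate shuttle, and the same aminotransferases that serve this shuttle are measured in blood as signs of liver injury.

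The values are read counts that the authors brought to almost the same sum, 32267493 to 32292618 per mouse, and are called scaled reads here. Differences are on the log2(value + 1) scale with their standard error (SE). Each adjusted p comes from limma with Benjamini-Hochberg adjustment over all 15052 genes, and a gene is called higher, lower or changed only where it is under 0.05. Where values of single mice are listed, they follow the mouse numbers 1 to 4 for pair-fed WT, 1 to 5 for pair-fed *Apoe* KO, 1 to 5 for EtOH-fed WT, and then 1, 2, 4 and 5 for EtOH-fed *Apoe* KO mice.

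The reads behind the values could be estimated in 12 of the 18 mice from the spacing of their low values, the shallowest being pair-fed WT mouse 1 with 5.60 M and the deepest pair-fed *Apoe* KO mouse 5 with 52.6 M. *Apoe* itself was at 1.20% to 15.2% of the WT mean of the same diet in the 9 KO mice, highest in pair-fed *Apoe* KO mouse 4. Signal of the gene was thus left in every KO mouse, and its source was not tested. The labels give all mice as female, yet EtOH-fed *Apoe* KO mouse 1 had 826 scaled reads of *Xist* against 15227 to 30379 in the others and 1077 of the Y-linked *Ddx3y* against 2 to 118. The study's methods allow for mice of either sex. That library goes against its label, so values without it are given beside most calls that involve EtOH-fed *Apoe* KO mice and wherever leaving it out changed a member's call. The 8 hepatocyte markers, among them *Alb*, *Apoa1* and *Ttr*, were above 0 in every mouse and summed to between 2200706 and 3820218 scaled reads. In bulk liver, fewer cells of a type and less RNA per cell cannot be told apart.

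Promoters of 5 members that changed are shown because glucose and hypoxia programmes are known to act through short E-box-like motifs. The E-box that the factors USF and MYC bind was searched as CACGTG. The core bound by hypoxia-inducible factors is held within it, since that core lacks only its first base, so the matches of both overlap. The windows are the bases before the RefSeq start in GRCm38.p6, written 5′ to 3′ along the gene, with matches on either strand to the E-box, the hypoxia core or the core of the cAMP response element in capitals. The *Ppp1r3c* window lies at chr19:36736654-36736854 on the minus strand and stops where the first annotated exon begins. *Hk2* is at chr6:82774455-82774704 and *Aldoa* at chr7:126799255-126799504, both on the minus strand, and the *Aldoa* window is 1 of 3 starts. It was taken as the first of the windows with the most matches to the hypoxia core, and another *Aldoa* start holds no match. *Gpt2*, at chr8:85492326-85492575 on the plus strand, and *Got1*, at chr19:43524606-43524855 on the minus strand, changed as well and hold none of these letters.
Ppp1r3c: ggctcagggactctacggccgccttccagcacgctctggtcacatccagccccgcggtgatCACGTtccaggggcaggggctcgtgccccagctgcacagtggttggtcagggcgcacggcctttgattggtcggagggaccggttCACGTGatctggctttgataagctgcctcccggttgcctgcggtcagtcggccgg
Hk2: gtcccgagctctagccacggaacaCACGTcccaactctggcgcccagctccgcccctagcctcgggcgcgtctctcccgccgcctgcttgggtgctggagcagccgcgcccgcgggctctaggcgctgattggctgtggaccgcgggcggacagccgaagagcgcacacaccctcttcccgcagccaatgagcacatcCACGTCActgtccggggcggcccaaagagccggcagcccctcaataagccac
Aldoa: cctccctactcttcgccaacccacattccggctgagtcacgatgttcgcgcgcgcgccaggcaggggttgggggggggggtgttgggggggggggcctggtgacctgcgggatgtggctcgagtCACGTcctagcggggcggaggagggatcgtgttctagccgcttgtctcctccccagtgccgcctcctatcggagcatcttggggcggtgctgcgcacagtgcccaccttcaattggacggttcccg
Gpt2: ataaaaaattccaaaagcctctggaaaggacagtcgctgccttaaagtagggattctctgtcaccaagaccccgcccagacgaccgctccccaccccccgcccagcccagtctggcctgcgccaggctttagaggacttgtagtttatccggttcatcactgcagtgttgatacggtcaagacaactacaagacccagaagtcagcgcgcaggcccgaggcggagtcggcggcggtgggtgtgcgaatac
Got1: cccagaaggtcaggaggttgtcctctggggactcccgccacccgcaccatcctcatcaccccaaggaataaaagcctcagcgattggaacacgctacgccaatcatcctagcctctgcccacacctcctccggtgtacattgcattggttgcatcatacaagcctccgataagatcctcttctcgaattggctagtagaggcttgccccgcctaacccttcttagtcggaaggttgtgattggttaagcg

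RefSeq windows of 250 bases were held for 31 of the 35 genes, with 44 starts in all. The hypoxia core, ACGTG, was found in 18 of the 44 (40.9%), from 16 genes, against 16.6% of all 32851 windows. Of the members' windows, 38 have a GC content of at least 50%, and among all windows of that kind 20.1% hold it. The E-box was in 6 of the 44 (13.6%, against 6.02% of all). The core of the cAMP response element, TGACG, was in 12 (27.3%, against 17.8%). A FOXO motif, GTAAACA, was in 0 of the 44, against 3.17% of all windows. Both strands were searched. These are counts of letters and say nothing of binding.

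Levels per length of exon gave an order of abundance in pair-fed WT liver. *Pck1*, which encodes the enzyme that commits oxaloacetate to gluconeogenesis, led with 20832 scaled reads per kb. *Fbp1*, which removes a phosphate from fructose bisphosphate in the same pathway, followed with 18230 and *Khk*, the fructose kinase, with 13272. At the other end stood *Hk2*, a hexokinase of muscle and growing cells, with 24.1 and the adaptor *Irs1* with 11.6 scaled reads per kb. In 27 of the 35 pairs of neighbours in this order the ranges of the 4 mice overlapped. Both genes of a pair come from the same mice, and their order within a mouse was not tested.

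**Figure D1:**
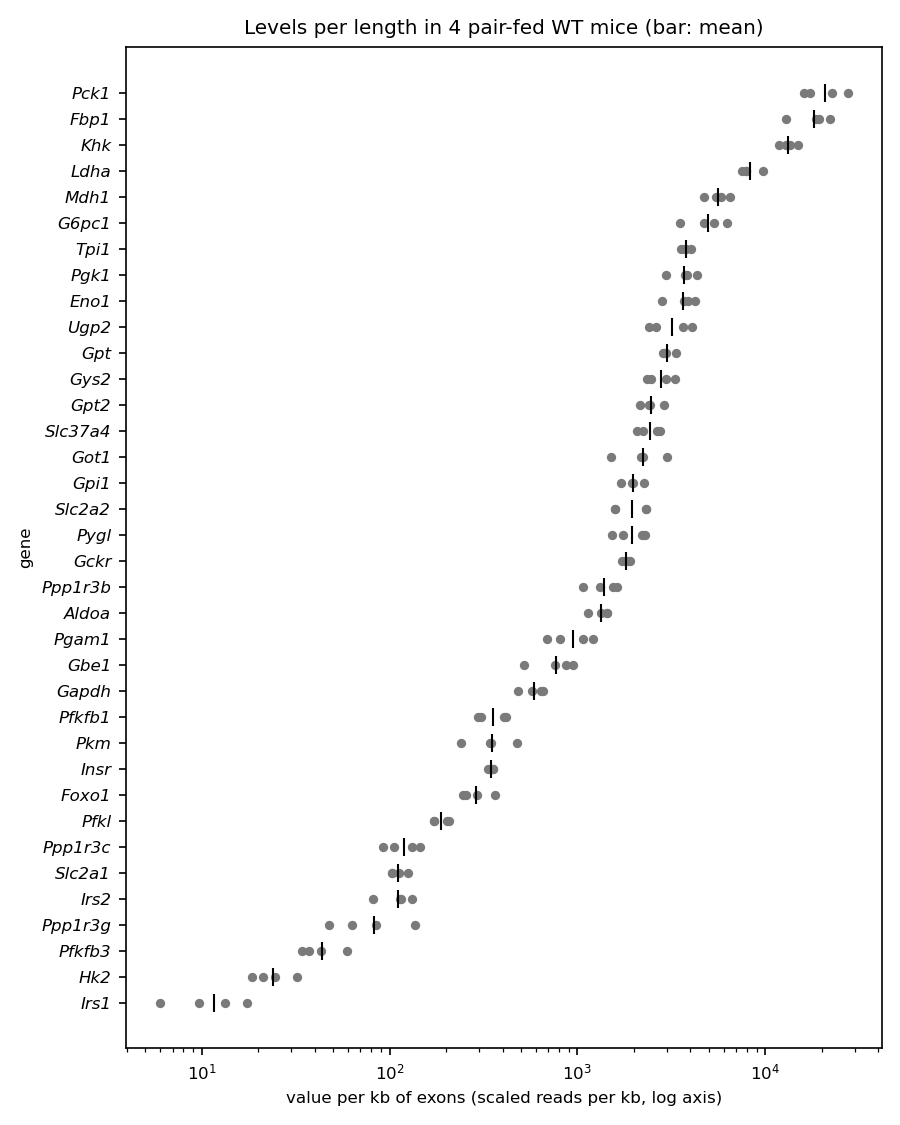
Scaled reads per kb of exon (log axis) of the 36 genes in each of the 4 pair-fed WT mice (points), with the mean as a short bar. The order runs from *Pck1* at 20832 to *Irs1* at 11.6 scaled reads per kb, and 27 of the 35 neighbouring pairs overlap.

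In WT mice, ethanol raised the aminotransferases *Gpt2* and *Got1*, the glycogen genes *Ppp1r3c* and *Ugp2*, the gluconeogenic *Fbp1* and the glycolytic *Pgk1* and *Eno1*, and lowered *Pfkfb1*, *Hk2* and *Pkm*. Of the 35 genes, 10 (28.6%) changed, with 7 higher and 3 lower in EtOH-fed mice. Over all 15052 genes 12.7% were called, with 6.19% higher and 6.52% lower, and among genes with a mean of at least 100 scaled reads 15.3%. The median difference of the 35 genes was 0.22, against −0.01 over all genes. Of the cell markers, 4 of 5 endothelial and 3 of 8 hepatocyte markers were higher and 2 of 5 Kupffer cell and 2 of 5 cholangiocyte markers lower in EtOH-fed WT mice, and their part in the members' values was not tested. Without 1 mouse at a time, 6 of the 10 calls were kept in every fit, and *Hk2*, *Pkm*, *Pgk1* and *Eno1* were the calls that could be lost. The count fell to 6 when pair-fed WT mouse 2, pair-fed WT mouse 4 or EtOH-fed WT mouse 2 was left out.

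In *Apoe* KO mice, ethanol raised 6 of 9 shared enzymes of glycolysis together with *Ugp2*, *Gpt2* and *Got1*, and lowered glycogen synthase, its regulator *Ppp1r3b* and *Foxo1*. Here 13 of the 35 genes (37.1%) changed, with 9 higher and 4 lower. Over all genes 23.2% were called, with 16.3% higher and 6.92% lower, and 27.4% among those with a mean of at least 100. The median of the 35 genes was 0.03, while that of all genes was 0.13. Markers of other cells moved in the same comparison, with 5 of 6 stellate cell, 4 of 5 endothelial, 3 of 5 red blood cell, 2 of 5 Kupffer cell, 2 of 6 macrophage and 1 of 5 cholangiocyte markers higher, and their part in the members' values was not tested. Scaling the mice by median-of-ratios size factors moved the median of all genes to 0.0018, and the split of members then turned from 9 higher and 4 lower to 6 higher and 9 lower, and that of all genes from 2446 higher and 1042 lower to 1656 higher and 1607 lower. With size factors *Pgam1*, *Pgk1* and *Eno1* were lost, and *Insr*, *Pck1*, *Pfkfb1*, *Pygl* and *Slc2a2* were called lower. Calls of the rise of *Aldoa*, *Pkm*, *Tpi1*, *Ugp2*, *Got1* and *Gpt2* and of the fall of *Gys2*, *Ppp1r3b*, *Foxo1* and *Ldha* held under both scalings. Without EtOH-fed *Apoe* KO mouse 1, 14 of the 35 genes were called.

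In pair-fed mice, *Ppp1r3c* was higher and *Gpi1* and *Pkm* lower in pair-fed *Apoe* KO than in pair-fed WT mice, which is 3 of 35 genes (8.57%). Over all genes 1.73% were called, with 0.87% higher and 0.864% lower. Among genes with a mean of at least 100 it was 2.19%. The median of the 35 genes was 0.20, against −0.0047 over all genes. The members' count was 1 without pair-fed WT mouse 2 and 6 without pair-fed WT mouse 3, and that of all genes, 261, became 73 and 670.

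Under ethanol, *Pkm*, *Hk2*, *Slc2a1* and *Aldoa* were higher and *Gpi1* lower in *Apoe* KO than in WT mice. These 5 of 35 genes (14.3%) stood against 4.69% of all genes, with 4.25% higher and 0.445% lower, and against 5.14% of those with a mean of at least 100. Size factors left 3 higher and 2 lower members, since *Aldoa* was lost and *Khk* gained, moved the split of all genes from 639 higher and 67 lower to 380 and 126, and moved their median from 0.11 to −0.02. The median of the 35 genes was 0.08. Calls numbered 4 without EtOH-fed *Apoe* KO mouse 1, 3 without EtOH-fed WT mouse 1 or 2, and 2 without EtOH-fed *Apoe* KO mouse 5.

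The interaction of diet and genotype, that is the ethanol difference in *Apoe* KO minus that in WT mice, was called for 4 of the 35 genes (11.4%), *Pkm*, *Hk2* and *Aldoa* with a positive and *Ppp1r3c* with a negative value. Over all genes 2.84% were called, 2.6% positive and 0.239% negative, and 2.96% among those with a mean of at least 100. The median of the 35 genes was −0.14, against 0.11 over all genes, which became −0.03 with size factors while the same 4 members were called. Without pair-fed WT mouse 4, 2 of the 4 remained, *Pkm* and *Ppp1r3c*. The comparisons share groups of mice, so their values for a gene are set side by side and not counted as separate evidence.

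**Figure D2:**
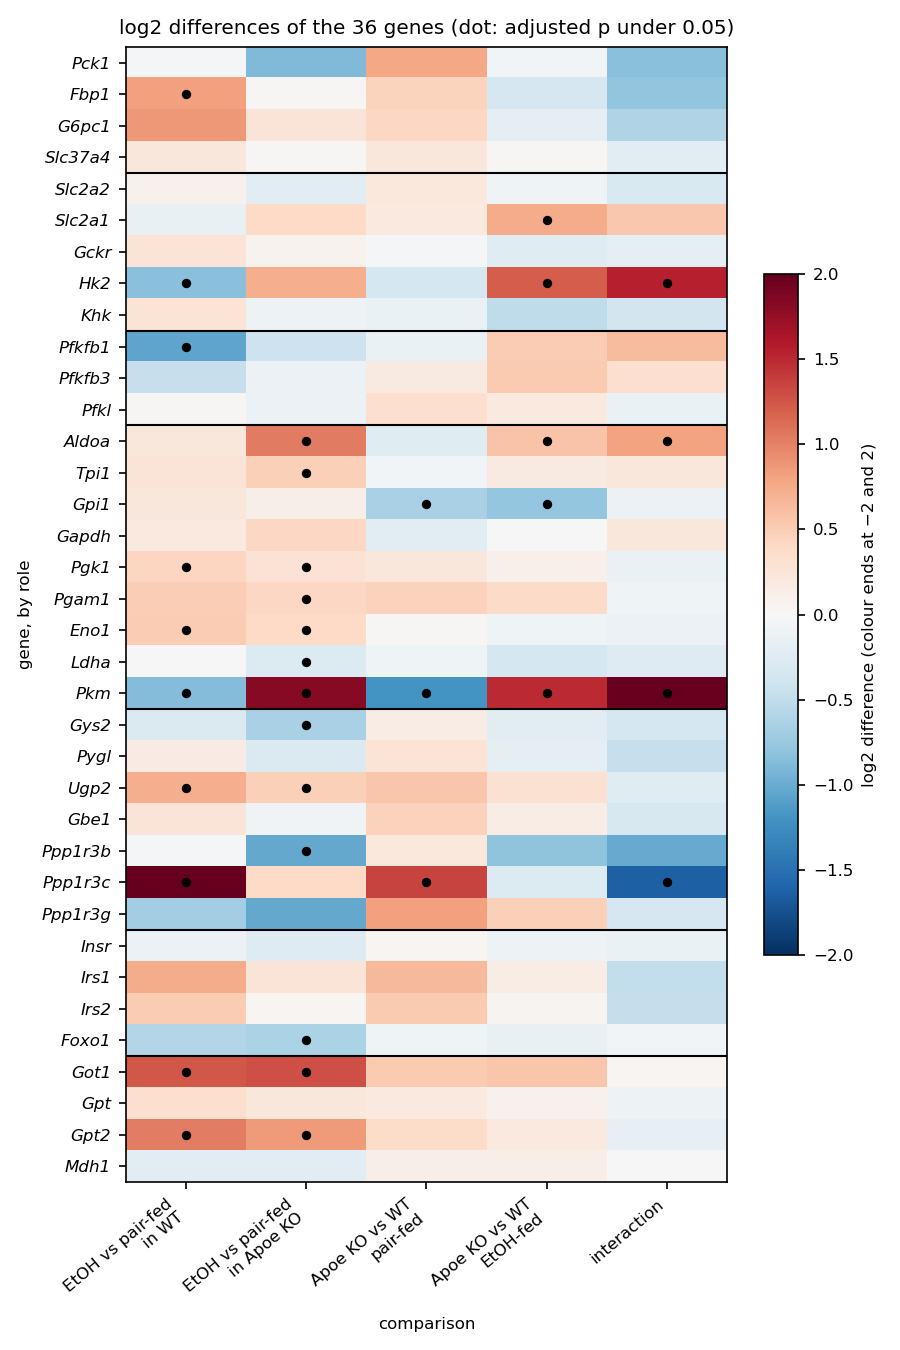
Colour gives the log2 difference of the 36 genes (rows, by role, separated by lines) in the 4 comparisons and the interaction (columns), and a dot marks an adjusted p under 0.05. The deepest colours are *Pkm* and *Ppp1r3c*, with interaction values of 2.68 and −1.63.

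Among the genes of gluconeogenesis and glucose release, *Fbp1* was the only member that changed with ethanol in WT mice. *Fbp1* was at 32955, 31612, 37492 and 22050 scaled reads in pair-fed WT and at 56855, 65554, 38526, 64086 and 48237 in EtOH-fed WT mice, so that the 2 groups did not overlap. The difference was 0.82 ± 0.19 (adjusted p = 0.0127). In *Apoe* KO mice it was at 48417, 39315, 45292, 48083 and 30150 when pair-fed and at 50310, 37772, 45823 and 37193 when EtOH-fed. These overlapped almost fully, with a difference of 0.03 ± 0.15 (adjusted p = 0.920), and the interaction of −0.79 ± 0.25 missed the threshold (adjusted p = 0.102). That interaction was called with a replicate block (−1.15, adjusted p = 0.0225) and without pair-fed KO mouse 5 (0.0491) or EtOH-fed WT mouse 3 (0.0444).

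*Pck1* had the values 94133, 59204, 77586 and 54814 in pair-fed WT, 116549, 91163, 171872, 123817 and 106597 in pair-fed KO, 77201, 90760, 53289, 69483 and 54916 in EtOH-fed WT, and 106867, 106051, 37561 and 41922 in EtOH-fed KO mice. EtOH-fed KO mice 4 and 5 lay below every pair-fed mouse, and mice 1 and 2 within the pair-fed KO range. The difference with ethanol was −0.04 ± 0.20 in WT (adjusted p = 0.917) and −0.88 ± 0.30 in KO mice (adjusted p = 0.0526), and passed the threshold in KO mice with size factors (0.0488), with all 4 groups in the fit (0.0287), among genes with a mean of at least 100 (0.0492), and without pair-fed KO mouse 2 (0.0422) or EtOH-fed KO mouse 1 or 2. Without EtOH-fed KO mouse 1 it was −1.12 (adjusted p = 0.0194). Between genotypes, pair-fed KO exceeded pair-fed WT mice by 0.77 ± 0.20 (adjusted p = 0.0652), which passed with quality weights (0.0295) and without pair-fed KO mouse 2 (0.0413).

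*G6pc1*, the glucose-6-phosphatase that sets glucose free, averaged 11950 ± 2748 (SD, n = 4) in pair-fed WT, 16035 ± 3952 (SD, n = 5) in pair-fed KO, 24490 ± 15593 (SD, n = 5) in WT mice on ethanol and 19051 ± 4708 (SD, n = 4) in KO mice on ethanol. The wide spread in EtOH-fed WT mice came with mouse 2 at 50743 against 11077 to 25627 in the other 4, and no comparison passed the threshold in the main fits (difference in WT 0.86 ± 0.33, adjusted p = 0.107). The WT difference was called with quality weights (1.19, adjusted p = 0.0426), with a replicate block (0.0402) and without EtOH-fed WT mouse 5 (0.0272). That between pair-fed genotypes was called with the block (0.57, adjusted p = 0.0398). *Slc37a4*, which carries glucose-6-phosphate to that enzyme in the endoplasmic reticulum, stayed within 5909 to 9917 scaled reads in all 18 mice, with differences between 0.02 and 0.23 in the 4 comparisons, none of them called.

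Among the 5 genes of sugar entry and trapping, *Hk2* and *Slc2a1* were called and *Slc2a2*, *Gckr* and *Khk* were not. *Slc2a2*, the gene of GLUT2, differed by 0.08 ± 0.18 with ethanol in WT and by −0.22 ± 0.12 in KO mice (adjusted p = 0.809 and 0.229). *Gckr*, which encodes a regulatory protein of sugar phosphorylation, differed by 0.27 ± 0.11 and 0.08 ± 0.10 (adjusted p = 0.108 and 0.648). *Khk* was at 25426, 27539, 27993, 26859 and 36881 in EtOH-fed WT and at 21496, 16012, 21116 and 23105 in EtOH-fed KO mice, which did not overlap, yet the difference of −0.50 ± 0.14 missed the threshold (adjusted p = 0.0587; −0.53 without EtOH-fed KO mouse 1, adjusted p = 0.0794). It was called with size factors (−0.63, adjusted p = 0.0209) and with all 4 groups in the fit (0.0237).

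*Slc2a1*, the gene of the widespread glucose transporter GLUT1, was at 392, 362, 361 and 439 in pair-fed WT, 428, 385, 596, 491 and 365 in pair-fed KO, 359, 281, 384, 341 and 396 in EtOH-fed WT, and 532, 566, 745 and 531 in EtOH-fed KO mice. All 4 EtOH-fed KO mice lay above all 5 EtOH-fed WT mice, by 0.75 ± 0.15 (adjusted p = 0.0144), and without EtOH-fed KO mouse 1 by 0.79 (adjusted p = 0.0243). The ethanol difference was −0.15 ± 0.14 in WT and 0.40 ± 0.16 in KO mice (adjusted p = 0.532 and 0.0948), and the interaction of 0.54 ± 0.21 was not called (adjusted p = 0.189). The KO difference was called with a replicate block (0.50, adjusted p = 0.0250) and without pair-fed KO mouse 3 (0.0401).

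*Hk2*, whose promoter above holds the hypoxia core at 2 places, was the least abundant member to change. It was at 127, 146, 110 and 192 in pair-fed WT, 118, 97, 86, 155 and 108 in pair-fed KO, 62, 61, 88, 96 and 91 in EtOH-fed WT, and 123, 141, 315 and 204 in EtOH-fed KO mice. Every EtOH-fed WT mouse was below every pair-fed WT mouse, by −0.84 ± 0.23 (adjusted p = 0.0313), and below every EtOH-fed KO mouse. The difference of EtOH-fed KO from EtOH-fed WT mice was 1.22 ± 0.28 (adjusted p = 0.0287) and the interaction 1.56 ± 0.37 (adjusted p = 0.0253). Within KO mice, the difference of 0.72 ± 0.28 with ethanol was not called (adjusted p = 0.0762) and became 0.91 without EtOH-fed KO mouse 1 (adjusted p = 0.0367). Leaving out that mouse gave 1.41 between genotypes and 1.75 for the interaction, both called.

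All 3 calls of *Hk2* depended on single mice. The call in WT mice was lost without pair-fed WT mouse 2 or 4 or EtOH-fed WT mouse 1 or 2 (adjusted p from 0.0675 to 0.101). That between EtOH-fed genotypes was lost without EtOH-fed WT mouse 1 or 2 or EtOH-fed KO mouse 4 or 5 (0.0615 to 0.0793). That of the interaction was lost without pair-fed WT mouse 2 or 4, pair-fed KO mouse 3, EtOH-fed WT mouse 1, or EtOH-fed KO mouse 4 or 5 (0.0527 to 0.0744).

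At the control step of glycolysis, *Pfkfb1* was lower in EtOH-fed WT mice. It lies on chromosome X (150588229 to 150643878, GRCm38) and encodes the liver enzyme that makes and breaks down fructose 2,6-bisphosphate, the switch between glycolysis and gluconeogenesis. The values were 1239, 1625, 1185 and 1668 in pair-fed WT and 808, 739, 867, 625 and 457 in EtOH-fed WT mice, which did not overlap, and the difference of −1.05 ± 0.18 was called (adjusted p = 0.00276) without any 1 mouse as well. In KO mice it was at 1213, 1700, 1055, 1084 and 1540 when pair-fed and at 1121, 907, 847 and 1042 when EtOH-fed, with some overlap and a difference of −0.41 ± 0.15 (adjusted p = 0.0644). The KO difference was called with size factors (−0.54, adjusted p = 0.0265), with a replicate block (0.034) and without pair-fed KO mouse 3 (0.0431) or 4 (0.0494). The interaction of 0.64 ± 0.25 was not called (adjusted p = 0.190), so a genotype effect on this fall was not shown.

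*Pfkfb3*, the inducible isoform, averaged 329 ± 85.0 (SD, n = 4), 385 ± 148 (SD, n = 5), 237 ± 49.6 (SD, n = 5) and 357 ± 156 (SD, n = 4) in pair-fed WT, pair-fed KO, EtOH-fed WT and EtOH-fed KO mice. *Pfkl*, the liver phosphofructokinase that responds to the product of these enzymes, averaged 1260 ± 124, 1590 ± 129, 1279 ± 171 and 1472 ± 234 in the same order. Neither gene was called in any comparison, the smallest adjusted p being 0.147 for *Pfkfb3* (ethanol in WT mice) and 0.0965 for *Pfkl* (genotype in pair-fed mice).

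**Figure D3:**
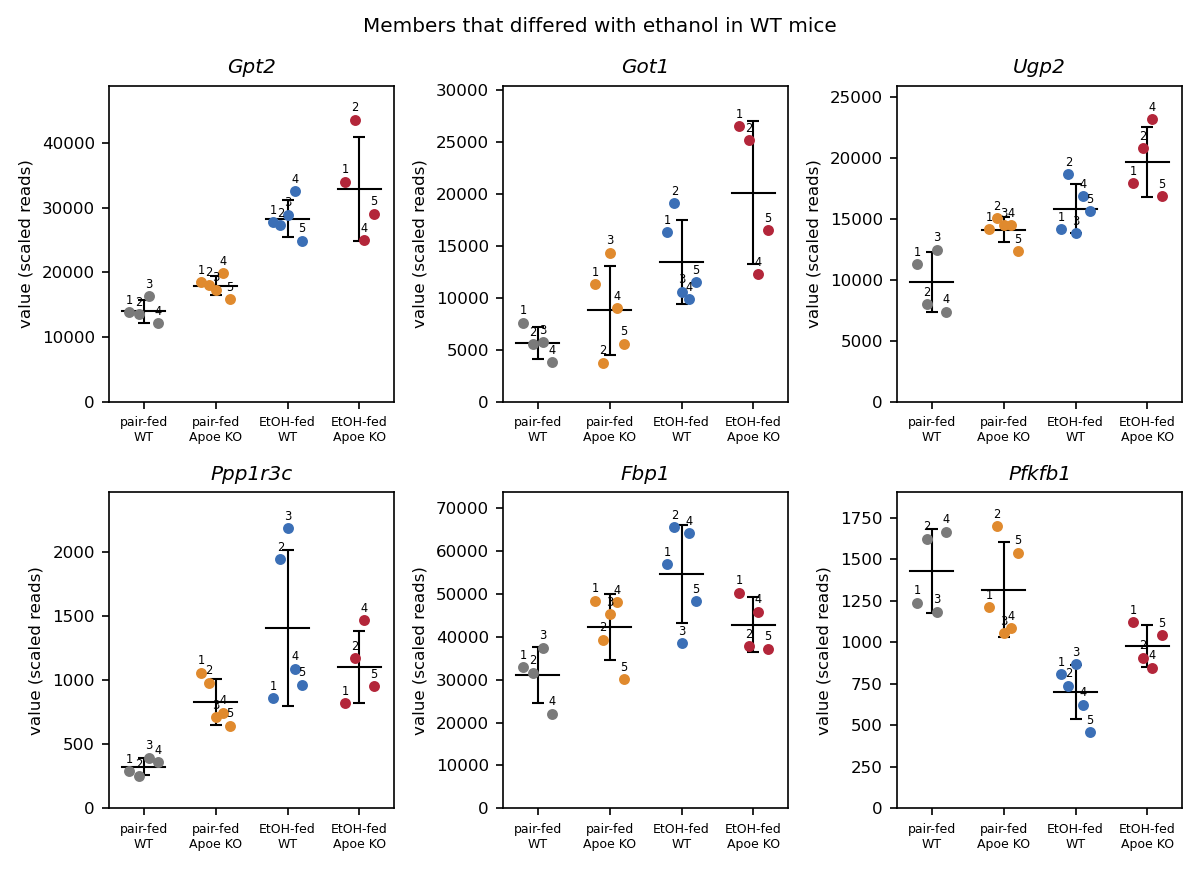
Scaled reads of 6 members that differed with ethanol in WT mice, by group, with each mouse as a numbered point, the mean as a line and the SD as bars. Pair-fed and EtOH-fed WT mice do not overlap in any of the 6 panels, and pair-fed *Apoe* KO mice lie above pair-fed WT mice for *Ppp1r3c*.

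Of the 9 shared enzymes of glycolysis and lactate formation, ethanol raised 6 and lowered 1 in KO mice, and raised 2 and lowered 1 in WT mice. With size factors 3 of the 6, *Aldoa*, *Pkm* and *Tpi1*, were still called higher in KO mice. *Tpi1*, the triose phosphate isomerase, was at 11655, 8431, 10367, 10803 and 9363 in pair-fed KO and at 15277, 13785, 13362 and 13880 in EtOH-fed KO mice. The groups did not overlap and differed by 0.48 ± 0.10 (adjusted p = 0.00443), or by 0.44 without EtOH-fed KO mouse 1 (adjusted p = 0.0130). In WT mice it was at 10464, 11120, 10348 and 9745 when pair-fed and at 11488, 13026, 13306, 12500 and 11701 when EtOH-fed, also without overlap, but the difference of 0.25 ± 0.09 was not called (adjusted p = 0.0992).

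*Aldoa*, the muscle-type aldolase, showed the smallest adjusted p of any member in KO mice. It was at 4183, 3883, 3301 and 4192 in pair-fed WT, 3173, 2890, 3096, 3829 and 3419 in pair-fed KO, 4229, 3592, 5774, 3923 and 5665 in EtOH-fed WT, and 6448, 6123, 7361 and 7036 in EtOH-fed KO mice. The EtOH-fed KO mice lay above all others, and exceeded pair-fed KO mice by 1.04 ± 0.10 (adjusted p = 2.2e-05; 1.06 without EtOH-fed KO mouse 1). In WT mice the difference was 0.23 ± 0.15 (adjusted p = 0.338), and the interaction of 0.81 ± 0.19 was called (adjusted p = 0.0213), except without pair-fed WT mouse 4 or EtOH-fed KO mouse 4 (0.0603 and 0.0522). Between EtOH-fed genotypes it was 0.56 ± 0.14 (adjusted p = 0.0432), which was lost with size factors (0.44, adjusted p = 0.0894) and without EtOH-fed WT mouse 1, 2 or 4 or any of the 4 EtOH-fed KO mice (0.0583 to 0.128). The gene overlaps another annotated gene of the same name, so its reads may be shared.

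*Pgk1*, the phosphoglycerate kinase on chromosome X that makes ATP, was at 8580, 8366, 9723 and 6627 in pair-fed WT and at 11573, 11798, 11325, 10917 and 9927 in EtOH-fed WT mice. In KO mice it was at 10726, 9508, 9608, 10354 and 8340, and at 12551, 11878, 11758 and 11189. Neither pair of groups overlapped, and both differences were called, 0.43 ± 0.12 in WT and 0.29 ± 0.09 in KO mice (adjusted p = 0.0291 and 0.0335). Both were fragile. The WT call was lost without any of pair-fed WT mice 1, 2 and 4 or EtOH-fed WT mice 1, 2 and 3 (0.0522 to 0.0789). The KO call was lost with size factors (0.17, adjusted p = 0.269) and without any of pair-fed KO mice 2, 3 and 5 or EtOH-fed KO mice 1, 2 and 4 (0.0508 to 0.0765).

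*Eno1*, the enolase of the next steps, was at 22744, 19750, 20793 and 15242 in pair-fed WT, 22540, 19457, 17873, 21899 and 17891 in pair-fed KO, 27362, 31260, 22523, 28639 and 29580 in EtOH-fed WT, and 27676, 22380, 29112 and 25954 in EtOH-fed KO mice. Within each genotype a single pair of mice overlapped, and ethanol raised the level by 0.51 ± 0.14 in WT and 0.40 ± 0.11 in KO mice (adjusted p = 0.0280 and 0.0186). The WT call was lost without pair-fed WT mouse 2 or 4 or EtOH-fed WT mouse 1, 2 or 4 (0.0514 to 0.0779), and the KO call without EtOH-fed KO mouse 4 (0.0604) or with size factors (0.0851). Without EtOH-fed KO mouse 1 the KO difference was 0.37 (adjusted p = 0.0423).

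*Pgam1*, the phosphoglycerate mutase between these enzymes, was at 3086, 2549, 2413, 2515 and 2074 in pair-fed KO and at 3169, 3284, 4110 and 2964 in EtOH-fed KO mice, with pair-fed mouse 1 above EtOH-fed mouse 5. The difference of 0.42 ± 0.12 was called (adjusted p = 0.0244; 0.45 without EtOH-fed KO mouse 1, adjusted p = 0.0343), but not with size factors (0.0907) or without pair-fed KO mouse 3 or 5 or EtOH-fed KO mouse 4 (0.0524 to 0.0760). In WT mice *Pgam1* was at 2115, 1592, 2397 and 1373, and at 2625, 3516, 2069, 3295 and 1819, and differed by 0.50 ± 0.21 (adjusted p = 0.133). This WT difference was called with quality weights (0.65, adjusted p = 0.0431). *Gapdh*, the dehydrogenase that feeds NADH to lactate formation, averaged 2429 ± 319 (SD, n = 4), 2088 ± 294.6 (SD, n = 5), 2785 ± 353 (SD, n = 5) and 2833 ± 706 (SD, n = 4) in pair-fed WT, pair-fed KO, EtOH-fed WT and EtOH-fed KO mice. It was not called in any comparison (ethanol in KO mice 0.42 ± 0.15, adjusted p = 0.0519), but passed the threshold in KO mice without EtOH-fed KO mouse 1 (0.49, adjusted p = 0.0423) or mouse 2 (0.0495), without pair-fed KO mouse 2 (0.0319), with all 4 groups in the fit (0.0341), with a pseudocount of 10 (0.0485) and among genes with a mean of at least 100 (0.0481). *Gapdh*, *Eno1*, *Pgam1*, *Ldha*, *Pkm*, *Tpi1* and *Aldoa* have near-identical copies in the genome, so their counts carry that uncertainty.

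*Ldha*, the lactate dehydrogenase subunit that turns pyruvate into lactate, was the 1 member of this list that fell in KO mice. It was at 25103, 26499, 25366, 25476 and 25530 in pair-fed KO and at 20379, 20702, 21141 and 22766 in EtOH-fed KO mice. The groups did not overlap, and the fall of −0.27 ± 0.08 was called (adjusted p = 0.0302) but is small. It was lost without pair-fed KO mouse 1, 3, 4 or 5 or EtOH-fed KO mouse 1, 2 or 4 (0.0513 to 0.0659). In WT mice *Ldha* was at 26230, 32084, 26269 and 24761, and at 30585, 28273, 21790, 27858 and 27450, with a difference of −0.01 ± 0.13 (adjusted p = 0.971).

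*Pkm*, the pyruvate kinase of most tissues other than liver parenchyma, lies on chromosome 9 (59656368 to 59679375, plus strand, ENSMUSG00000032294) and was called in all 4 comparisons and the interaction. It was at 1717, 1725, 1195 and 2384 in pair-fed WT, 986, 533, 499, 1017 and 871 in pair-fed KO, 646, 682, 1029, 1214 and 1279 in EtOH-fed WT, and 1379, 2313, 5064 and 2961 in EtOH-fed KO mice. Pair-fed KO mice lay below all pair-fed WT mice, and EtOH-fed KO mice above all EtOH-fed WT and all pair-fed KO mice. Ethanol lowered *Pkm* in WT mice by −0.87 ± 0.23 (adjusted p = 0.0259), with EtOH-fed mice 4 and 5 above pair-fed mouse 3, and raised it in KO mice by 1.81 ± 0.31 (adjusted p = 0.00131).

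The interaction of *Pkm*, 2.68 ± 0.44 (adjusted p = 0.00443), was the largest of any member and was called without any 1 mouse. KO differed from WT mice by −1.19 ± 0.23 when pair-fed (adjusted p = 0.0208) and by 1.50 ± 0.31 when EtOH-fed (adjusted p = 0.0158). Without EtOH-fed KO mouse 1, the values were 2.13 for ethanol in KO mice, 1.81 between EtOH-fed genotypes and 3.0 for the interaction, all called. Without mouse 4, which held the highest value, they were 1.50, 1.18 and 2.37, all called. The fall in WT mice was lost without pair-fed WT mouse 1, 2 or 4 or EtOH-fed WT mouse 1 or 2 (adjusted p from 0.0541 to 0.0868) and with all 4 groups in the fit (0.0608). The pair-fed difference was lost without pair-fed WT mouse 1, 2 or 4 (0.0529 to 0.0863) or with all 4 groups in the fit (0.0514), and the EtOH-fed difference without EtOH-fed KO mouse 5 (1.44, adjusted p = 0.0512).

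**Figure D4:**
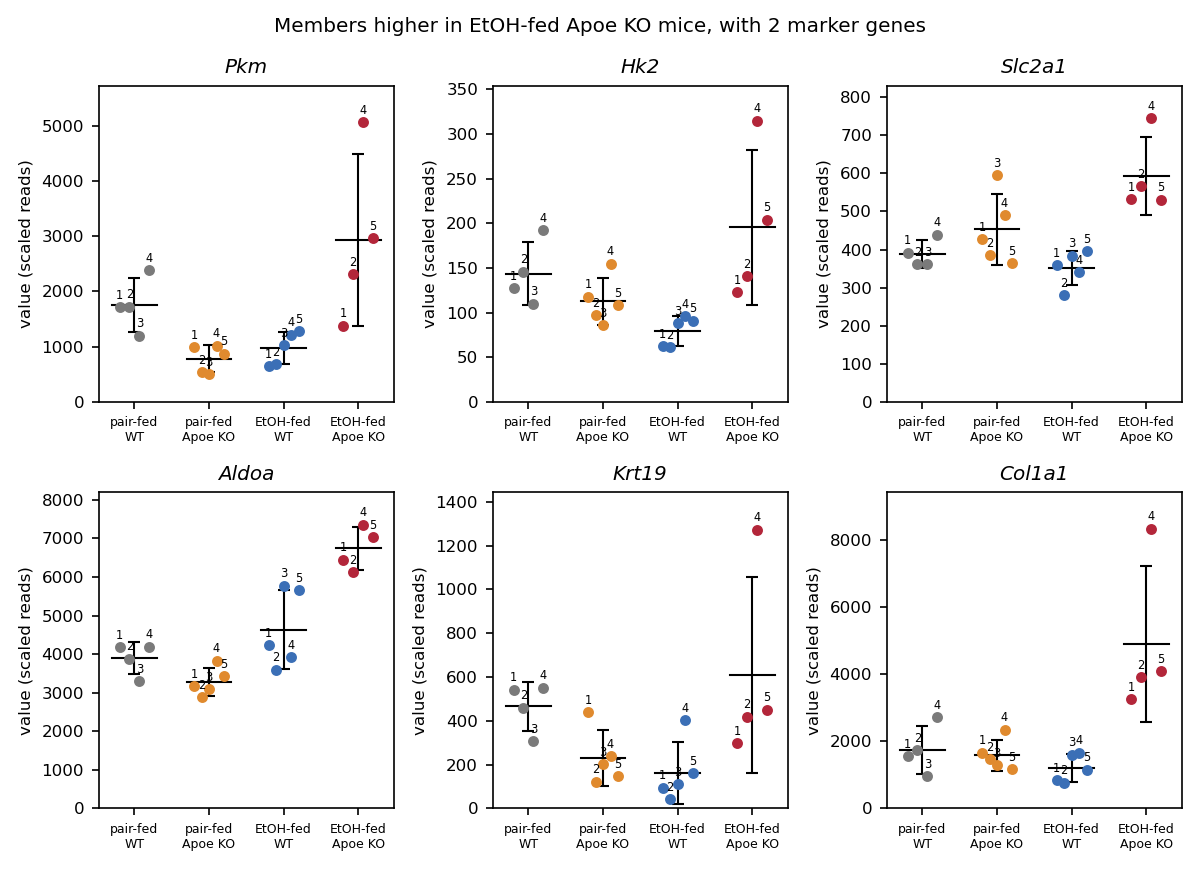
Scaled reads of *Pkm*, *Hk2*, *Slc2a1* and *Aldoa* and of the markers *Krt19* and *Col1a1* in each mouse (numbered points), with group means (lines) and SD (bars). EtOH-fed *Apoe* KO mice lie above EtOH-fed WT mice for the 4 members and *Col1a1*, and mouse 4 is highest in all 6 panels.

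Markers of other liver cells also differed in the comparison in which *Pkm*, *Hk2*, *Slc2a1* and *Aldoa* were higher. They did not all follow these members from mouse to mouse. Within EtOH-fed KO mice, the Kupffer cell markers *Clec4f*, *Cd5l* and *Marco* were highest in mouse 1, at 7486, 9309 and 2152. *Vsig4* and *Timd4* were highest in mouse 5, at 1434 and 531. Of the macrophage markers, *Cd68* and *Adgre1* were highest in mouse 1, *Ly6c2* in mouse 5, and *Ccr2*, *Cx3cr1* and *Itgam* in mouse 4. *Pkm* and *Hk2* were lowest in mouse 1, the library that goes against its sex label, and highest in mouse 4. Between EtOH-fed KO and WT mice all 5 Kupffer cell markers were higher, and their sum ran from 10705 to 20653 scaled reads in KO and from 4297 to 8212 in WT mice, against 7070 to 13025 in pair-fed WT and 7337 to 14697 in pair-fed KO mice. Of the monocyte and macrophage markers 3 of 6 were higher, with sums of 1409 to 2145 against 585 to 828 (pair-fed WT 714 to 1430, pair-fed KO 722 to 1509). Of the stellate cell and fibroblast markers 2 of 6, *Col1a1* and *Col3a1*, were higher, with sums of 17855 to 32693 against 10405 to 17142 (pair-fed WT 10288 to 15694, pair-fed KO 10604 to 14312). The cholangiocyte list had 1 of 5 higher, *Krt19*, with sums of 2705 to 8719 against 1669 to 3818 (pair-fed WT 3106 to 5970, pair-fed KO 3519 to 4078).

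*Krt19*, like *Pkm*, had its highest mean in EtOH-fed KO mice and a higher mean in pair-fed WT than in the other 2 groups, at 542, 460, 308 and 551 in pair-fed WT, 440, 121, 201, 239 and 146 in pair-fed KO, 95, 43, 111, 404 and 162 in EtOH-fed WT, and 299, 418, 1273 and 450 in EtOH-fed KO mice. *Col1a1* was highest in EtOH-fed KO mouse 4 as well, at 8331 against 3256, 3903 and 4083 in the other 3. By group means, the rest of the cholangiocyte list did not share the pattern of *Krt19* as a whole. The highest mean was in pair-fed WT mice for *Spp1* and *Krt7*, in pair-fed KO mice for *Epcam* and in EtOH-fed KO mice for *Sox9*. Within EtOH-fed KO mice, every listed cholangiocyte and stellate cell marker was highest in mouse 4, as *Pkm*, *Hk2*, *Slc2a1* and *Aldoa* were. Among them were *Spp1* at 6591, *Sox9* at 614 and *Col3a1* at 8732, and *Epcam* led only by 151 against 150 in mouse 5. No listed marker of these 4 lists was at 0 in any mouse. Endothelial markers were called in 0 of 5 between EtOH-fed genotypes, as were lymphocyte markers (0 of 5), red blood cell markers (0 of 5), hepatocyte markers (0 of 8) and the 3 of 6 neutrophil markers in the table. The skeletal muscle markers *Ckm*, *Acta1* and *Myh4* were not among the 15052 genes. The part of these cells in the values of *Pkm*, *Hk2*, *Slc2a1* and *Aldoa* was not tested.

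*Gpi1*, the phosphoglucose isomerase, was the member that followed genotype and not diet. It was at 14521, 12568, 12682 and 11024 in pair-fed WT, 7712, 9197, 7013, 9488 and 7066 in pair-fed KO, 13952, 16795, 11295, 13998 and 19443 in EtOH-fed WT, and 9485, 7517, 9490 and 8382 in EtOH-fed KO mice. All 9 KO mice lay below all 9 WT mice. The difference was −0.65 ± 0.12 when pair-fed (adjusted p = 0.0142; 0.0528 without pair-fed WT mouse 2) and −0.77 ± 0.15 when EtOH-fed (adjusted p = 0.010; −0.82 without EtOH-fed KO mouse 1). With ethanol *Gpi1* differed by 0.23 ± 0.15 in WT and 0.11 ± 0.12 in KO mice (adjusted p = 0.336 and 0.521). It lies on chromosome 7 (34201330 to 34230336, minus strand, GRCm38), 14.5 Mb from *Apoe*. Among the 401 other genes within 20 Mb of *Apoe*, 7.23% were called between pair-fed genotypes and 10.7% between EtOH-fed genotypes, and the part of this neighbourhood in the difference of *Gpi1* was not tested.

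**Figure D5:**
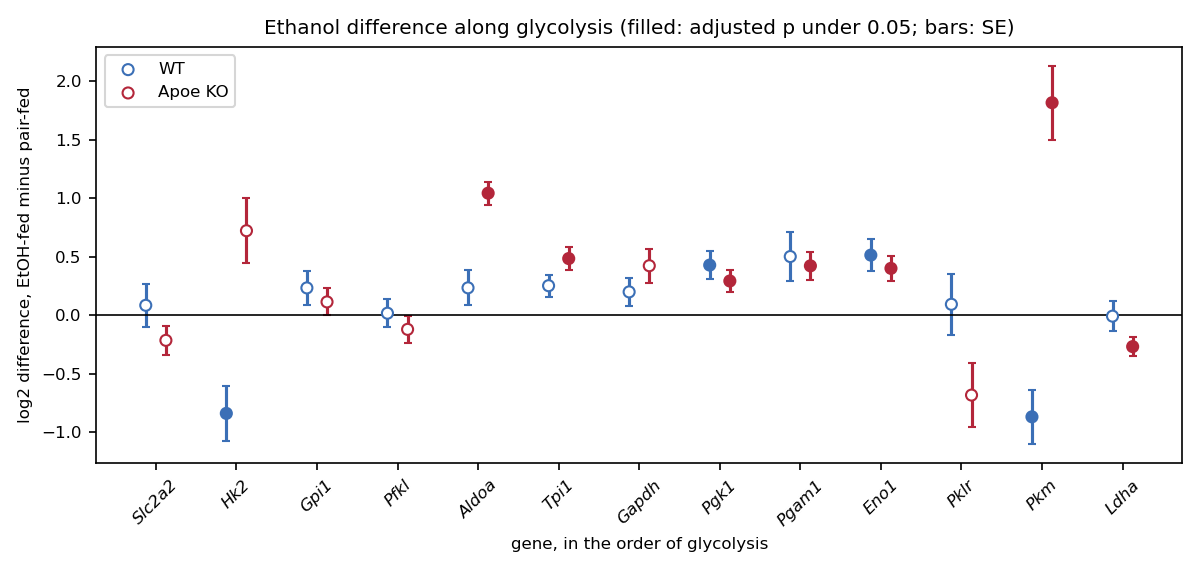
Log2 difference between EtOH-fed and pair-fed mice (points, with SE as bars) along glycolysis in WT and *Apoe* KO mice, filled where the adjusted p was under 0.05, with *Pklr* added beside the members. *Pkm* lies at −0.87 in WT and at 1.81 in *Apoe* KO mice.

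Of the 7 glycogen genes, *Ppp1r3c* changed most. It lies on chromosome 19 (36731731 to 36736653, minus strand) and encodes a targeting subunit that brings protein phosphatase 1 to glycogen and so activates glycogen synthase. The values were 288, 250, 396 and 361 in pair-fed WT, 1058, 981, 709, 747 and 645 in pair-fed KO, 857, 1944, 2185, 1089 and 964 in EtOH-fed WT, and 820, 1172, 1466 and 954 in EtOH-fed KO mice. All 14 mice that were EtOH-fed, KO or both lay above the 4 pair-fed WT mice. Ethanol raised it by 2.03 ± 0.26 in WT mice, which is 4.10-fold (adjusted p = 0.000383), and the pair-fed KO mice were 1.35 ± 0.17 above pair-fed WT mice (adjusted p = 0.00133).

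Within KO mice ethanol made a difference of 0.41 ± 0.18 (95% interval 0.01 to 0.80, adjusted p = 0.126) in *Ppp1r3c*, and the interaction was −1.63 ± 0.35 (adjusted p = 0.0153; −1.50 without EtOH-fed KO mouse 1, adjusted p = 0.0271). EtOH-fed KO and WT mice differed by −0.28 ± 0.27 (adjusted p = 0.638). The 3 calls of this gene were kept without any 1 mouse. Its promoter, printed above, holds the E-box once and a further hypoxia core.

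*Ugp2*, which makes the UDP-glucose that glycogen synthase uses, was at 11260, 8019, 12460 and 7400 in pair-fed WT, 14176, 15069, 14459, 14496 and 12339 in pair-fed KO, 14174, 18671, 13829, 16850 and 15651 in EtOH-fed WT, and 17919, 20788, 23179 and 16853 in EtOH-fed KO mice. EtOH-fed mice lay above pair-fed mice within each genotype, by 0.72 ± 0.16 in WT and 0.47 ± 0.11 in KO mice (adjusted p = 0.0105 and 0.00679; 0.51 in KO without mouse 1). Between pair-fed genotypes *Ugp2* was not called in the main fit. It was called higher in KO mice with quality weights (0.62, adjusted p = 0.0270), with all 4 groups in the fit (0.0467), and without pair-fed WT mouse 3 (0.0195) or pair-fed KO mouse 5 (0.0481). *Gys2*, the liver glycogen synthase itself, was at 6161, 9481, 9671, 8296 and 7204 in pair-fed KO and at 5420, 5065, 4990 and 5106 in EtOH-fed KO mice. The EtOH-fed values were tightly grouped below all pair-fed ones, with a fall of −0.65 ± 0.12 (adjusted p = 0.00246; −0.67 without mouse 1). In WT mice *Gys2* was at 7906, 6232, 8781 and 6564 when pair-fed and at 6360, 7546, 4759, 6014 and 5433 when EtOH-fed, a difference of −0.29 ± 0.14 (adjusted p = 0.195).

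*Ppp1r3b*, the glycogen-targeting subunit most abundant in liver, was at 10044, 6677, 9580 and 8220 in pair-fed WT, 10931, 11183, 6967, 9870 and 10903 in pair-fed KO, 10623, 12568, 6841, 8313 and 5555 in EtOH-fed WT, and 3684, 3473, 7905 and 5298 in EtOH-fed KO mice. Of the EtOH-fed KO mice, only mouse 4 was above the lowest pair-fed KO mouse. The fall of −1.03 ± 0.21 in KO mice was called (adjusted p = 0.00399; −0.90 without mouse 1, adjusted p = 0.0137), while WT mice differed by −0.02 ± 0.21 (adjusted p = 0.966). The interaction of −1.01 ± 0.33 was not called (adjusted p = 0.107), but it was with quality weights (0.029) and without EtOH-fed WT mouse 5 or EtOH-fed KO mouse 4 (0.0482 and 0.0426). EtOH-fed KO and WT mice differed by −0.81 ± 0.26 (adjusted p = 0.0972), which was called with quality weights (0.030), with all 4 groups in the fit (0.0430) and without the same mice (0.0497 and 0.0417).

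*Ppp1r3g*, a targeting subunit that responds to fasting and feeding, varied most between mice, from 24 to 2175 scaled reads, the latter in pair-fed KO mouse 3, and was called nowhere. *Pygl*, the liver phosphorylase that breaks glycogen down, averaged 13438 ± 2513 (SD, n = 4), 16262 ± 2835 (SD, n = 5), 15031 ± 2107 (SD, n = 5) and 13296 ± 2054 (SD, n = 4) in pair-fed WT, pair-fed KO, EtOH-fed WT and EtOH-fed KO mice. *Gbe1*, the branching enzyme, averaged 4138 ± 999, 5586 ± 859, 4814 ± 370 and 5311 ± 455 in the same order. *Pygl* and *Gbe1* were called in no comparison, although *Pygl* passed the threshold as lower with ethanol in KO mice once the mice were scaled by size factors.

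Of the 4 insulin pathway genes, *Foxo1* was the only one called, and only with ethanol in KO mice. It was at 3140, 2133, 2225 and 2516 in pair-fed WT, 2317, 2078, 2272, 2048 and 3090 in pair-fed KO, 2419, 1303, 1316, 1322 and 2258 in EtOH-fed WT, and 1583, 1819, 1154 and 1519 in EtOH-fed KO mice. In KO mice all EtOH-fed values were below all pair-fed ones, with a fall of −0.64 ± 0.14 (adjusted p = 0.00658; −0.66 without mouse 1, adjusted p = 0.0123). In WT mice EtOH-fed mice 2, 3 and 4 were below and mice 1 and 5 within the pair-fed range, and the difference of −0.58 ± 0.20 was not called (adjusted p = 0.0775), although it was with all 4 groups in the fit (0.0439) and without EtOH-fed WT mouse 1 or 5 (0.0298 and 0.0344). The interaction was −0.06 ± 0.27 (adjusted p = 0.942), so the fall was not shown to differ between genotypes.

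*Insr*, the insulin receptor, stayed between 3671 and 5488 scaled reads in all mice. Its difference with ethanol was −0.12 ± 0.09 in WT and −0.26 ± 0.09 in KO mice (adjusted p = 0.402 and 0.0554). The KO difference was called with size factors (−0.38, adjusted p = 0.0130), with all 4 groups in the fit (0.0259) and among genes with a mean of at least 100 (0.0481). *Irs1* averaged 106 ± 44.6 (SD, n = 4) in pair-fed WT, 158 ± 33.4 (SD, n = 5) in pair-fed KO, 169 ± 37.2 (SD, n = 5) in WT mice on ethanol and 186 ± 21.7 (SD, n = 4) in KO mice on ethanol. *Irs2*, the adaptor that falls when insulin is high, averaged 699 ± 133, 1050 ± 407, 1024 ± 357 and 1020 ± 86.7 in the same order. Their differences with ethanol in WT mice were 0.75 ± 0.28 for *Irs1* and 0.51 ± 0.22 for *Irs2* (adjusted p = 0.0948 and 0.150), and those between pair-fed genotypes 0.65 ± 0.29 and 0.53 ± 0.23 (adjusted p = 0.225 and 0.213). *Irs1* was called in WT mice with all 4 groups in the fit (0.0468) and without pair-fed WT mouse 3 (0.0366).

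Ethanol raised 2 of the 3 aminotransferases in both genotypes. *Gpt2*, the mitochondrial alanine aminotransferase, was at 13801, 13572, 16343 and 12184 in pair-fed WT, 18502, 18097, 17308, 19850 and 15852 in pair-fed KO, 27796, 27325, 28928, 32581 and 24885 in EtOH-fed WT, and 34009, 43593, 24964 and 29064 in EtOH-fed KO mice. Every EtOH-fed mouse lay above every pair-fed mouse, and the rise was 1.02 ± 0.12 in WT (2.03-fold, adjusted p = 0.000173) and 0.85 ± 0.14 in KO mice (1.80-fold, adjusted p = 0.000961; 0.82 without mouse 1, adjusted p = 0.00323). *Got1*, the cytosolic aspartate aminotransferase of the malate-aspartate shuttle, was at 7600, 5545, 5707 and 3813 in pair-fed WT, 11302, 3766, 14334, 9011 and 5578 in pair-fed KO, 16333, 19101, 10593, 9887 and 11478 in EtOH-fed WT, and 26524, 25152, 12306 and 16526 in EtOH-fed KO mice. It rose by 1.24 ± 0.22 in WT (adjusted p = 0.00282), where the groups did not overlap, and by 1.28 ± 0.34 in KO mice (adjusted p = 0.0146; 1.13 without mouse 1, adjusted p = 0.0446), where pair-fed mouse 3 was above EtOH-fed mouse 4. These calls were kept without any 1 mouse.

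The interaction of *Gpt2* was −0.17 ± 0.19 with a 95% interval from −0.56 to 0.22 (adjusted p = 0.705), and that of *Got1* 0.04 ± 0.45 with an interval from −0.90 to 0.97 (adjusted p = 0.980), so that a genotype difference of some size in *Got1* would not have been seen. *Gpt*, the cytosolic alanine aminotransferase that clinical tests measure, averaged 8874 ± 670 (SD, n = 4), 10363 ± 2393 (SD, n = 5), 11202 ± 1509 (SD, n = 5) and 11948 ± 2196 (SD, n = 4) in pair-fed WT, pair-fed KO, EtOH-fed WT and EtOH-fed KO mice, and was not called (ethanol in WT 0.33 ± 0.11, adjusted p = 0.0743). *Mdh1*, the cytosolic malate dehydrogenase of the shuttle, differed by −0.21 with ethanol in both genotypes (adjusted p = 0.288 and 0.170).

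Of 138 further genes of these pathways, 132 were in the table. Ethanol changed 23 of them in WT mice, 11 higher and 12 lower, and 42 in KO mice, 19 higher and 23 lower, where 12.7% and 23.2% of all genes were called. Between genotypes 3 of the 132 were higher and 1 lower when pair-fed, 2 higher and 1 lower when EtOH-fed, and the interaction was called for 2 in each direction. Over all genes 1.73%, 4.69% and 2.84% were called in these tests, in the same order. Those higher in pair-fed KO mice were *Trib3*, *Igfbp1* and *Stbd1* and the lower one *Hk1*. Between EtOH-fed genotypes *Hk1* and *G6pdx* were higher and *Srebf1* lower in KO mice, and the interaction was positive for *Hk1* and *G6pdx* and negative for *Srebf1* and *Sord*. The *Srebf1* interaction of −1.08 ± 0.29 (adjusted p = 0.0469) was lost in 13 of the 18 fits with 1 mouse left out (up to 0.135), among genes with a mean of at least 100 (0.0517) and with a pseudocount of 0.1 (0.0523), while that of *Sord* was lost in 0 of the 18. In KO mice, the insulin and glucagon list had 4 higher and 7 lower of 44, the glycogen list 5 higher and 3 lower of 18, and the shuttle and aminotransferase list 2 higher and 6 lower of 16. The medians of the 132 genes were −0.07 for ethanol in WT and 0.01 in KO mice, against −0.01 and 0.13 over all genes.

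*Srebf1*, the lipogenic factor that insulin induces, was at 8557, 5295, 7970, 8054 and 6023 in pair-fed KO and at 2142, 1661, 2497 and 2307 in EtOH-fed KO mice, a fall of −1.73 ± 0.15 (adjusted p = 1.44e-05; −1.73 without mouse 1 too). Its difference between EtOH-fed genotypes of −0.83 ± 0.21 (adjusted p = 0.0405) was lost without EtOH-fed WT mouse 1, 2 or 4 or any 1 of the EtOH-fed KO mice (0.0653 to 0.102). *Socs3*, a feedback inhibitor of cytokine and insulin signals, fell with ethanol by −1.32 ± 0.17 in KO mice (adjusted p = 0.000186; −1.27 without mouse 1).

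*Trib3*, a stress-induced pseudokinase that binds AKT, rose most of all the genes named here. It was at 150, 131, 136 and 116 in pair-fed WT, 542, 388, 318, 488 and 187 in pair-fed KO, 1024, 3924, 5451, 3506 and 2119 in EtOH-fed WT, and 2904, 3576, 3893 and 3126 in EtOH-fed KO mice. Every pair-fed KO mouse was above every pair-fed WT mouse, by 1.44 ± 0.26 (adjusted p = 0.0138, which was lost without pair-fed WT mouse 2 or 4, at 0.0521 and 0.0537). Ethanol raised it by 4.37 ± 0.36 in WT and 3.21 ± 0.24 in KO mice (adjusted p = 1.39e-05 and 4.45e-06; 3.28 in KO without mouse 1). *Igfbp1*, which FOXO1 induces and insulin represses, was at 6730, 2836, 3152 and 2834 in pair-fed WT and at 11307, 34012, 36725, 12249 and 4365 in EtOH-fed WT mice. Ethanol raised it by 2.05 ± 0.51 in WT mice (adjusted p = 0.0197, lost without pair-fed WT mouse 2 or 4, at 0.0608 and 0.0622), and KO mice differed by 0.79 ± 0.28 (adjusted p = 0.0595). Between pair-fed genotypes it was 1.29 ± 0.30 (adjusted p = 0.0455), which was lost with a pseudocount of 0.1, with all 4 groups in the fit, and without pair-fed WT mouse 2, 3 or 4 or pair-fed KO mouse 1, 2, 3 or 4 (0.0542 to 0.154).

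*Hk1*, the hexokinase of most other cells, and *G6pdx*, which opens the pentose phosphate path, had positive interactions, as *Pkm* did. *Hk1* was at 282, 204, 204 and 296 in pair-fed WT, 159, 88, 112, 160 and 128 in pair-fed KO, 113, 157, 208, 180 and 181 in EtOH-fed WT, and 257, 248, 675 and 392 in EtOH-fed KO mice, with an interaction of 2.06 ± 0.37 (adjusted p = 0.00646). *G6pdx* was at 254, 207, 305 and 192, at 91, 133, 138, 143 and 159, at 91, 112, 72, 143 and 120, and at 216, 201, 303 and 173 in the same order of groups, with an interaction of 1.90 ± 0.31 (adjusted p = 0.00478). In both genes EtOH-fed KO mouse 4 was the highest of its group. It was so for *Pkm*, for all listed cholangiocyte and stellate cell markers and for some macrophage markers too, but not for any Kupffer cell marker. The part of other cell types was not tested here either. Without EtOH-fed KO mouse 1 the interactions were 2.23 and 1.91, both called. The *Hk1* differences between genotypes, −0.94 ± 0.21 when pair-fed and 1.13 ± 0.28 when EtOH-fed (adjusted p = 0.0440 and 0.0382), were each lost without several single mice (0.0535 to 0.154, and 0.0535 to 0.0982). The *G6pdx* difference when EtOH-fed, 1.05 ± 0.24 (adjusted p = 0.0242), was lost without EtOH-fed WT mouse 1 or EtOH-fed KO mouse 4 (0.0678 and 0.0759).

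*Stbd1*, which tethers glycogen to membranes, was at 2478, 1792, 2617 and 1624 in pair-fed WT, 3249, 3494, 3173, 3762 and 3017 in pair-fed KO, and 3338, 4735, 4072, 5659 and 3521 in EtOH-fed WT mice. Ethanol raised it in WT mice by 1.01 ± 0.18 (adjusted p = 0.00302), and the pair-fed genotypes differed by 0.68 ± 0.14 (adjusted p = 0.0249, lost without pair-fed WT mouse 2 or 4 or pair-fed KO mouse 1 or 4, at 0.0595 to 0.0979). *Slc16a1*, the lactate and pyruvate carrier MCT1, rose with ethanol by 0.76 ± 0.09 in WT and 0.91 ± 0.17 in KO mice (adjusted p = 0.000248 and 0.00176; 1.01 in KO without mouse 1). *Pdp2*, a phosphatase that activates pyruvate dehydrogenase, fell by −0.97 ± 0.13 and −1.08 ± 0.19 (adjusted p = 0.000469 and 0.00132; −1.12 in KO without mouse 1). *Sord*, the sorbitol dehydrogenase, fell by −0.82 ± 0.11 in KO mice (adjusted p = 0.000187; −0.90 without mouse 1) and differed by −0.05 ± 0.13 in WT mice (adjusted p = 0.850), with an interaction of −0.77 ± 0.16 (adjusted p = 0.0129).

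*Pklr*, the liver pyruvate kinase, differed with ethanol by 0.09 ± 0.26 in WT and −0.68 ± 0.27 in KO mice (adjusted p = 0.857 and 0.0857). *Pcx*, the pyruvate carboxylase that starts gluconeogenesis, *Gcgr*, the glucagon receptor, *Ppargc1a*, a coactivator of gluconeogenic genes, and *Pdk4*, which switches pyruvate dehydrogenase off, were called in no comparison.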

How the data were processed

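Liver polyA RNA of 18 mice was sequenced. Per the labels and the study's methods, reads were checked with FastQC, trimmed with Trimmomatic, aligned to GRCm38 with HISAT2, sorted with SAMtools and counted with featureCounts, and DESeq2 was used. Tool versions are not given in the sources used here. The deposited table holds a signal per gene and mouse, that is whole numbers that the authors had scaled to a nearly common total, by a step that is not described, so depth was read from the spacing of low values. These values are not raw counts, and a test for counts was not used. Columns with the authors' own comparisons (a mean, log2 fold changes, their errors, statistics, p-values and adjusted p-values) were not used.

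Of 15247 lines, 195 were additional lines of 56 genes and were dropped, which left 15052 genes, with no further filter on low values. The smallest mean was 12.1. Each comparison of 2 groups was fitted with limma 3.58.1 (R 4.3.3, trended variance, two-sided) on log2(value + 1), with only those groups in the fit, and the interaction on all 18 mice. The replicates are separate mice. The fits were tested on simulated data. Gene positions come from GENCODE M21 (GRCm38) and promoters from RefSeq (GRCm38.p6). Members called anywhere, and the 3 with the smallest p-value in each comparison, are given mouse by mouse, and the others by means or ranges. Of the further genes, the 3 called with the smallest p-value in each comparison are named, with neighbours of members in the pathway, and others where a count is 5 or fewer. Some of these genes are not reported here. The members and lists were chosen with earlier results of these data known. Same-numbered mice of 2 groups were checked for shared deviations over 4 pairs, and no comparison had every correlation above 0.1 (means −0.0481, 0.0358, 0.0152 and 0.135), so that numbers were not taken to pair mice. Alternatives were size factors, a minimum mean of 100, pseudocounts of 0.1 and 10, array quality weights, a replicate block, all 4 groups in 1 fit, and each mouse left out. The replicate block added the mouse number to the fit and kept only numbers present in every group compared.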

Additional observations from a re-analysis of the deposited data

Results flagged for a closer look

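Among 144 sets of values (36 genes in 4 groups), 8 held a mouse that stood apart by Dixon's criterion, where chance gives about 7. The distance from the next mouse, divided by the range of the whole group, was 0.845 for *Gapdh* in EtOH-fed *Apoe* KO mouse 4 and 0.864 for *Insr* in EtOH-fed *Apoe* KO mouse 1. EtOH-fed WT mouse 5 stood apart for *Gckr* (0.729), *Insr* (0.753) and *Khk* (0.741), and EtOH-fed WT mouse 4 for *Irs1* (0.86). Pair-fed *Apoe* KO mouse 3 stood apart for *Khk* (0.82) and *Ppp1r3b* (0.736).

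The ethanol difference itself differed between genotypes by the interaction test for 8 genes. The log2 interaction was 2.68 for *Pkm*, 1.56 for *Hk2* and 0.81 for *Aldoa*, and −1.63 for *Ppp1r3c*. Among the further genes it was 2.06 for *Hk1* and 1.90 for *G6pdx*, and −1.08 for *Srebf1* and −0.77 for *Sord*. That of *Srebf1* was lost in 13 of the 18 fits with 1 mouse left out. The tests stand in the report.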

How the results depend on the processing

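Counts of called members were 10 for ethanol in WT mice, 13 for ethanol in *Apoe* KO mice, 3 between pair-fed genotypes, 5 between EtOH-fed genotypes and 4 for the interaction. With array quality weights the pair-fed count was 5, and with all 4 groups in 1 fit the EtOH-fed count was 8. With the replicate block the EtOH-fed count was 9 and the counts elsewhere were 9, 14, 4 and 6, in the order above. With 1 mouse left out, the counts ran from 6 to 11 in WT, 9 to 14 in KO, 1 to 6 in pair-fed, 2 to 6 in EtOH-fed mice and 2 to 5 for the interaction. Over all genes, 261 were called between pair-fed genotypes, against 456 with quality weights and 392 with the block, and 706 between EtOH-fed genotypes, against 1083 with the block. The differences of members that passed the threshold with the block and not in the main fits included those of *Foxo1* with ethanol in WT mice (−0.69, adjusted p = 0.00884), *Pck1* between pair-fed genotypes (0.0468), *Khk* between EtOH-fed genotypes (0.0265) and the interaction of *Ppp1r3b* (0.0369). The block also dropped mice whose number was missing from a compared group. Without EtOH-fed WT mouse 5 and with no block, *Foxo1* differed by −0.69 too (adjusted p = 0.0344). With 1 mouse left out, the counts over all genes ran from 1186 to 1904 in WT (1912 with every mouse), 2637 to 3320 in KO (3488), 73 to 670 in pair-fed and 327 to 620 in EtOH-fed mice, and 167 to 561 for the interaction (428), so the shares of all genes beside the members' counts move as well. No difference of a member or further gene that was called changed its direction. Counted once for each call in each fit, losses of members' calls numbered 61 with 1 mouse left out and 11 under the other settings. Calls kept without any 1 mouse were 6 of 10 for ethanol in WT and 9 of 13 in KO mice. They were 1 of 3 between pair-fed genotypes, 2 of 5 between EtOH-fed genotypes and 2 of 4 for the interaction. The 11 losses were *Hk2* and *Eno1* in WT mice and *Ldha* in KO mice with the block (adjusted p = 0.0511, 0.0776 and 0.0702), *Pkm* in WT and pair-fed mice and *Pgam1* and *Ldha* in KO mice with all 4 groups (0.0608, 0.0514, 0.104 and 0.0584), and 4 with size factors. The cause was not tested. Depth between 5.60 M and 52.6 M reads limits genes such as *Hk2*, where 1 read of pair-fed WT mouse 1 was worth 5.76 scaled reads.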
